A study of Caenorhabditis elegans with 21 samples.

Results

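The subject is a set of 165 windows of 500 bp, of 200547 that tile the Caenorhabditis elegans genome (build ce10), in which RNA was counted in early embryos of the nrde-3 met-2 double mutant while 5 other genotypes were close to silent. The members were chosen by their measured level in CPM, a window's reads scaled to the same total for every library. A member had at least 1 CPM in each of 3 nrde-3 met-2 libraries. It also had a mean of at most 0.2 CPM over the 3 libraries of each of nrde-3 set-25, lin-61 set-25, nrde-3, lin-61 and N2. The 5 quiet genotypes left 90640 windows, so the members were 165 windows and the other quiet windows 90475. Members next to each other, or with at most 1 window between them, formed 87 stretches.

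Total RNA was sequenced from whole early embryos, of about 1 to 300 cells and before the bean stage, from worms kept at 20 °C and harvested 60 to 65 h past synchronization at L1. The 7 genotypes had 3 libraries each. Genotypes are given and named here by their labels, which were checked only in part. Of the 4 double mutants, 2 are labelled as carrying met-2(n4256) on III, together with nrde-3(tm1116) on X or with lin-61(tm2649) on I. The 2 others are labelled as carrying set-25(n5021) on III, joined to the same nrde-3 or lin-61 allele. The single mutants were nrde-3(tm1116) and lin-61(tm2649), and N2 (Bristol) is the wild type. The genotype labelled lin-61 met-2 is the only one whose values did not enter the choice of members, so tests were made only on it. Each test set it against a genotype that the choice had made low. Since the labels speak of 2 biological replicates and there are 3 libraries per genotype, p-values reflect only how these libraries vary, which may be partly technical.

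MET-2 and SET-25 are methyltransferases of histone H3 lysine 9, a mark of silent chromatin on repeats and other untranscribed DNA. In C. elegans, MET-2 places the mono- and dimethyl states, and SET-25 can place the trimethyl state. NRDE-3 is an Argonaute protein of somatic nuclear RNA interference, which carries small RNAs into the nucleus to matching transcripts. LIN-61 is a chromatin protein with MBT domains that binds methylated lysine 9. The counts carry no gene, repeat or strand information, and the annotation at hand is of another build than ce10, so windows are named here by chromosome and first base, and neither genes nor sequences are given.

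Libraries held 22275571 to 67553226 reads, with 24300452 to 28834312 in nrde-3 met-2. The letters a, b and c name the libraries within a genotype and do not pair them across genotypes. At a few other windows the lin-61 met-2 labelled libraries went against that label. These windows were picked by the levels of all libraries, with the side of the lin-61 met-2 labelled ones set beforehand. Windows at which they side with lin-61 and lin-61 set-25 were not sought, so the check covers only the windows picked. Over 2 windows on chromosome I they held 80.2, 87.7 and 100.2 CPM in a, b and c, where lin-61 set-25 and lin-61 held 5.42 to 10.5 CPM and the other genotypes 58.8 to 102.2 CPM. Over 3 windows on I and X they held 6.14, 6.75 and 6.35 CPM, within 4.04 to 8.02 CPM in the genotypes with nrde-3, where lin-61 set-25, lin-61 and N2 held 68.7 to 97.0 CPM. Over 3 windows on III all 4 double mutants were low, with 0.381 to 0.946 CPM in nrde-3 met-2, 0.824 to 1.12 CPM in the lin-61 met-2 labelled libraries and 0.414 to 1.24 CPM in the set-25 double mutants, where nrde-3, lin-61 and N2 held 28.7 to 42.4 CPM. At III 13288001 and III 13288501, which are among them, the 4 double mutants held 0 CPM in every library but 1. That was nrde-3 met-2 c, with 0.0412 CPM at III 13288001. The other genotypes held 14.8 to 22.2 and 6.22 to 11.3 CPM there. These windows did not set nrde-3 met-2 apart from the set-25 double mutants, although its label does not name set-25. The met-2 and set-25 labels were not checked further, and a cause was not tested. By choice, the 3 lin-61 met-2 labelled libraries lay on the same side at the picked windows. At the members library a stood apart from b and c. Background differed too: over the other quiet windows the mean was 0.209, 0.116 and 0.408 CPM in nrde-3 met-2 a, b and c, 0.0293, 0.0826 and 0.0619 CPM in the lin-61 met-2 labelled libraries, and 0.0223 to 0.0614 CPM in the other 15.

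The members ranged widely in level in nrde-3 met-2, a range that the choice left free above 1 CPM. Their mean over the 3 libraries ran from 1.12 to 133 CPM with a median of 3.83 CPM. It was at least 10 CPM in 25 members and under 2 CPM in 32. The medians over the members were 3.59, 2.08 and 5.39 CPM in nrde-3 met-2 a, b and c. In the lin-61 met-2 labelled libraries the medians were 0, 1.01 and 0.762 CPM. Reads from the members were thus not limited to the nrde-3 met-2 libraries. The lin-61 met-2 labelled libraries went against their label at the few windows picked to check it. Windows on the label's side were not sought. Whether a second genotype shows the member windows therefore cannot be told. Libraries b and c labelled lin-61 met-2 were both above all 15 libraries of the 5 quiet genotypes at 156 of 165 members (94.5%), beside 11% of the other quiet windows. Library a was above them at 0 members. In bulk embryos, fewer cells with RNA from a window and less RNA per cell cannot be told apart.

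The quiet genotypes were low by choice, and their levels are a description. Their 15 library medians ran from 0 to 0.124 CPM, where 3 reads, the floor used here for a count of 0, correspond to 0.0444 to 0.135 CPM. Summed over the members, nrde-3 met-2 held 2203, 452 and 1723 CPM in a, b and c. By comparison, nrde-3 set-25 held 26.4, 6.94 and 6.60 CPM in a, b and c. For lin-61 set-25 the sums were 16.4, 6.36 and 12.5 CPM, and for N2 they were 7.03, 6.42 and 16.4 CPM. Per member, the nrde-3 met-2 libraries held 63.8, 23.6 and 25.6 times their own background, and nrde-3 set-25 a and N2 c, the highest of the quiet libraries, held 3.12 and 3.93 times theirs.

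**Figure D1:**
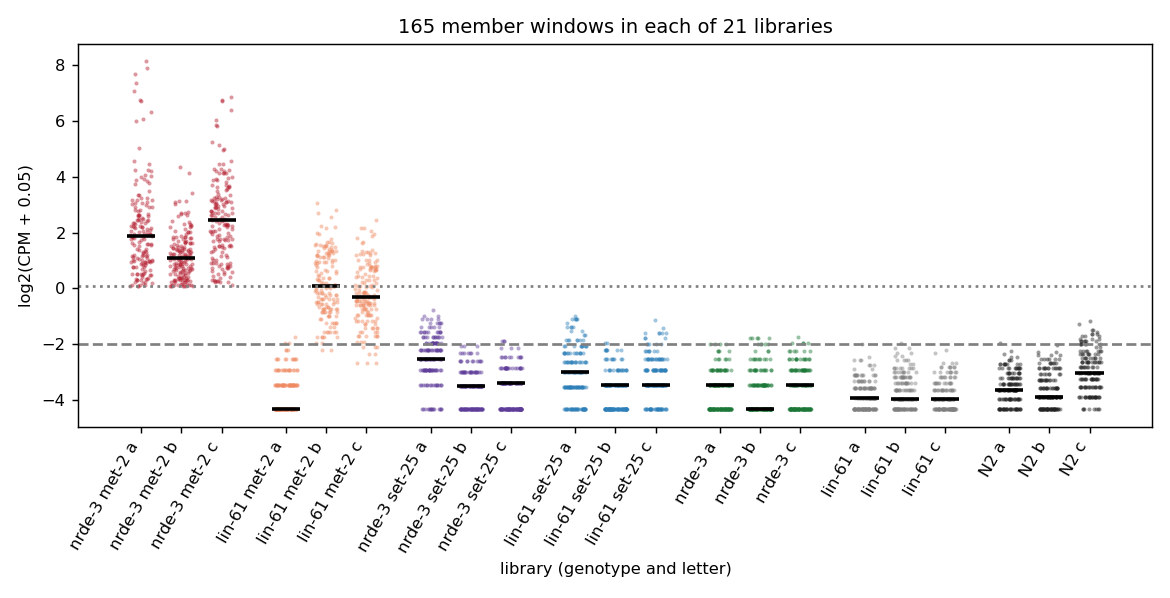
Level of each of the 165 member windows in each of 21 libraries, as log2(CPM + 0.05), 1 point per window, with a black bar at the median of the windows. The dotted line is at 1 CPM and the dashed line at 0.2 CPM. All points of nrde-3 met-2 lie above the dotted line by choice, library a labelled lin-61 met-2 has a median of 0 CPM, and b and c have medians of 1.01 and 0.762 CPM.

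The same rule turned round found almost nothing, but it also required a mean of at most 0.2 CPM in nrde-3 met-2. Over the other quiet windows the mean background was 0.209, 0.116 and 0.408 CPM in nrde-3 met-2 a, b and c. Background alone could thus put a window above that limit, and the counts below do not show what is particular to nrde-3 met-2. With 1 CPM or more in each library of another of the 5 genotypes, and the 4 others and nrde-3 met-2 quiet, there were 0 windows for nrde-3 set-25, 1 for lin-61 set-25, and 0 each for nrde-3, lin-61 and N2. Among windows quiet in the 5 genotypes, 64 had at least 1 CPM in libraries b and c labelled lin-61 met-2, and 59 of those 64 were members. With library a as well there were 0.

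The 3 nrde-3 met-2 libraries did not hold the members at the same levels. Library c was the highest at 101 members, a at 37 and b at 27, and b was the lowest at 118. The highest library exceeded the lowest by a median of 2.77 times, with a range of 1.02 to 109 times, and by at least 10 times at 18 members in 10 stretches. Across the 165 members, levels as log2(CPM + 0.05) had a Pearson correlation of 0.902 between a and c, 0.125 between a and b and 0.227 between b and c. These are descriptions over windows of the same libraries, and windows of 1 stretch are not independent. The 10 strongest members of each library held 65.2% of the member signal in a, 22.5% in b and 40.3% in c.

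A small group of members accounted for the widest gaps. At 8 members in 5 stretches, on I, III and X, library a exceeded b by 57.9 to 109 times and c by 1.85 to 2.39 times. The strongest was III 5354501, with 279.8, 2.57 and 117 CPM in nrde-3 met-2 a, b and c. In the lin-61 met-2 labelled libraries this window held 0, 8.30 and 5.48 CPM, and N2 held 0.207, 0.0528 and 0.274 CPM. I 3665001 had 104.8, 1.18 and 56.3 CPM in nrde-3 met-2, and X 11785501 had 162.5, 2.39 and 84.2 CPM. So a and c were high at all 3 of these windows. Library b was near the lower limit at I 3665001. At III 5354501 and X 11785501 it was above its own median over the members, 2.08 CPM. Only at these 8 members was library b labelled lin-61 met-2 at least 2.07 times library b of nrde-3 met-2 (2.07 to 3.95 times), while at the other 157 members that ratio was at most 1.88, with a median of 0.463. The 8 windows lie on 3 chromosomes and were picked by a ratio of at least 50, which fixes part of their likeness. Whether they share sequence was not tested, and how reads with several matches were counted is not given in the sources used here.

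Other members leaned the other way or were even. Library b was the highest at 27 members, whose medians were 1.74, 2.88 and 1.81 CPM in a, b and c. The most uneven of them was I 2543001, with 1.37, 20.1 and 6.30 CPM. Its neighbour I 2543501 had 1.37, 17.4 and 5.51 CPM and was high in b as well. The most even members were low ones: V 20175001 had 1.53, 1.53 and 1.56 CPM, and V 14751001 had 1.29, 1.28 and 1.23 CPM. V 10979501 and IV 8817001 had 1.08 to 1.21 CPM in the 3 libraries.

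Members with the most signal in their weakest nrde-3 met-2 library were moderate in all 3. V 11274001 had 8.596, 8.497 and 9.465 CPM in nrde-3 met-2, 0, 3.10 and 2.54 CPM in the lin-61 met-2 labelled libraries, and 0.0377, 0.0418 and 0.0407 CPM in lin-61 set-25. I 4545001 had 8.35, 8.60 and 14.1 CPM in nrde-3 met-2. On III, 2500501 had 14.9, 6.69 and 18.6 CPM and 2497501 had 16.2, 6.52 and 19.5 CPM. These windows were high in every nrde-3 met-2 library and in libraries b and c labelled lin-61 met-2. The next of these by that measure were V 14757001, X 12277501, X 5057001 and X 11886501, whose lowest nrde-3 met-2 library held 6.49, 5.49, 5.27 and 4.68 CPM.

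**Figure D2:**
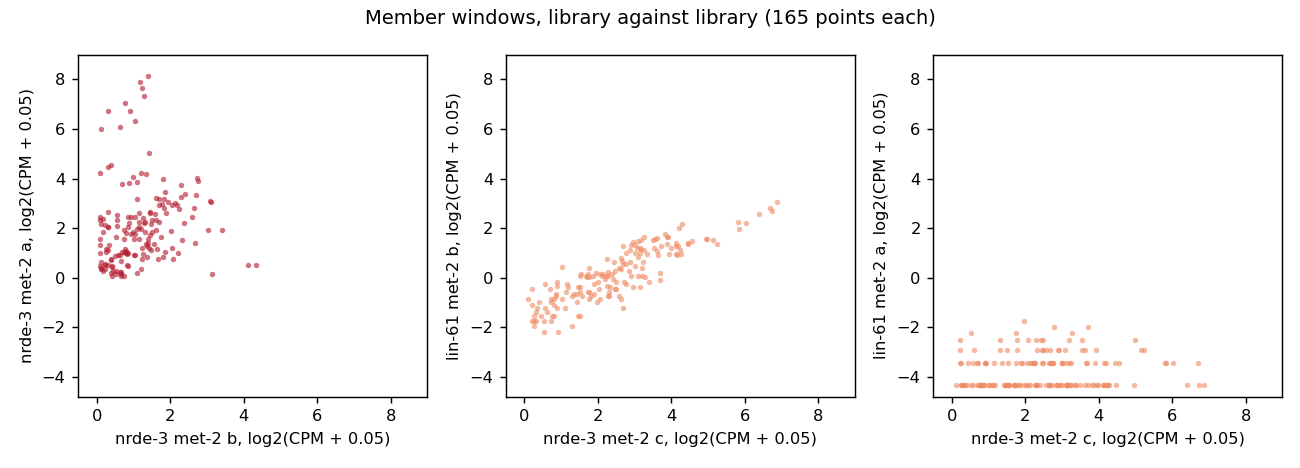
Level of the 165 members in pairs of libraries, both axes as log2(CPM + 0.05). Left, nrde-3 met-2 a against b, where the members with the widest gaps lie at the upper left. Middle, library b labelled lin-61 met-2 against nrde-3 met-2 c, which rise together (Pearson correlation 0.875). Right, library a labelled lin-61 met-2 against nrde-3 met-2 c, where a stays at or below 0.247 CPM.

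Most stretches were short. Of 87 stretches, 56 were a single window, 31 held 2 or more members (109 members in all) and 7 held 5 or more (52 members). The longest ran from 10361501 to 10369000 on X, 7500 bp with 14 members. Its 15 windows summed to 56.0, 31.2 and 101.2 CPM in nrde-3 met-2 a, b and c, to 0.165, 18.02 and 12.8 CPM in the lin-61 met-2 labelled libraries, and to at most 1.74 CPM in any of the other 15 libraries. Directly before this stretch, X 10361001 held 27.4, 9.16 and 29.5 CPM in nrde-3 met-2 a, b and c. It was no member, since the means of the quiet genotypes there were 0.517 to 1.68 CPM. The next longest stretches, with 7 members each, were IV 6357501 to 6361000, X 12276501 to 12280000 and V 4333001 to 4336500. The IV stretch summed to 18.3, 16.3 and 52.5 CPM in nrde-3 met-2 and to 0.495, 11.5 and 8.92 CPM in the lin-61 met-2 labelled libraries. The X stretch at 12276501 summed to 15.3, 17.3 and 22.7 CPM in nrde-3 met-2, the most even of these 4. The V stretch summed to 56.0, 21.4 and 55.4 CPM.

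The members on III at 5354001, 5354501 and 5358001 belonged to a longer block. From 5352501 to 5358500, 12 windows had at least 1 CPM in each nrde-3 met-2 library, and 9 of them were not members because a quiet genotype exceeded 0.2 CPM. Leaving out the first window, the ratio of a to b in nrde-3 met-2 stayed within 80.1 and 113 over the other 11, and a to c within 1.90 and 2.50. Outside the block the level dropped at once. Over the 2 kb on each side the highest value of each library was 0.646, 0.486 and 1.605 CPM in nrde-3 met-2 a, b and c, not all at the same window. The median inside was 301, 3.49 and 141 CPM. III 5355501, inside the block, missed membership at an N2 mean of 0.201 CPM although it held 250.0, 2.22 and 99.96 CPM in nrde-3 met-2.

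**Figure D3:**
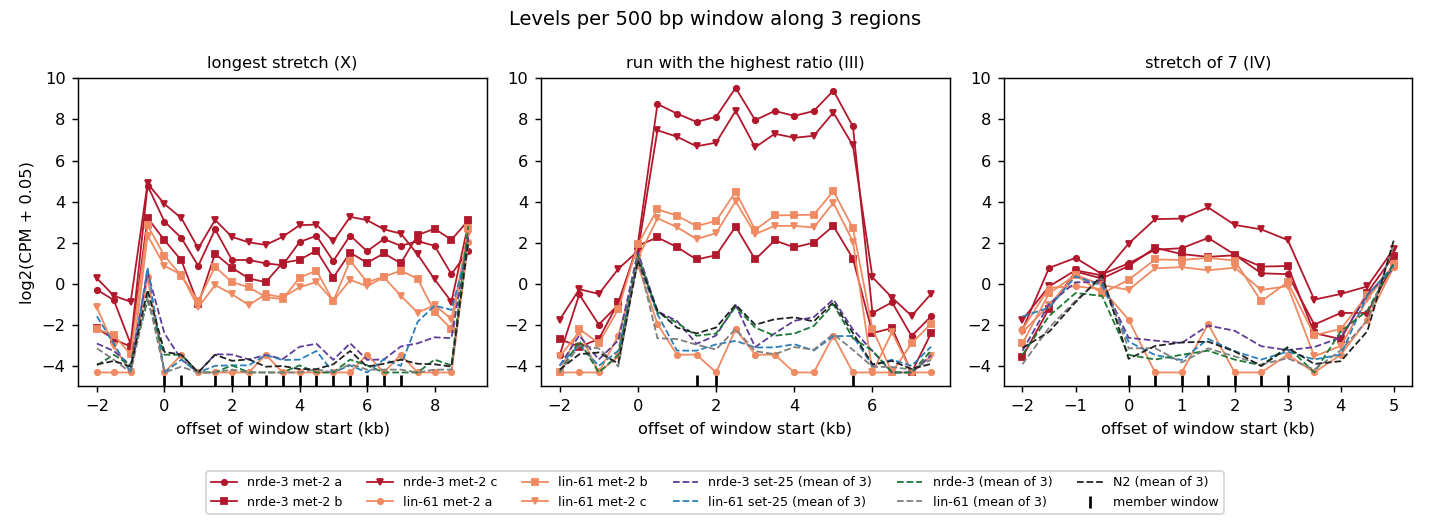
Level per 500 bp window, as log2(CPM + 0.05), along the longest stretch on X, the block on III and a stretch of 7 members on IV, with 2 kb on each side. The x axis is the distance in kb of each window's start from the first window of the region. Solid lines are single libraries, dashed lines are means of 3 libraries and ticks mark members. Library b of nrde-3 met-2 lies near a on X and IV and far below a and c on III.

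Signal around the members fell off within about 1 kb. All windows away from a member are no members, so part of the fall in nrde-3 met-2 was fixed by the choice. The median of the nrde-3 met-2 mean was 3.83 CPM at the members, 1.16 CPM in the 185 windows beside them and 0.444 CPM at 1000 bp, and it stayed between 0.321 and 0.360 CPM from 1500 to 5000 bp. In the lin-61 met-2 labelled libraries the medians of the mean were 0.593, 0.197 and 0.0997 CPM at 0, 500 and 1000 bp. Of the 185 windows beside members, 47 also had at least 1 CPM in each nrde-3 met-2 library but exceeded 0.2 CPM in a quiet genotype, 122 were quiet but below 1 CPM in some nrde-3 met-2 library, and 16 were neither. For 38 of 87 stretches the run of windows at 1 CPM or more in nrde-3 met-2 was longer than the stretch, and for 49 it was not.

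**Figure D4:**
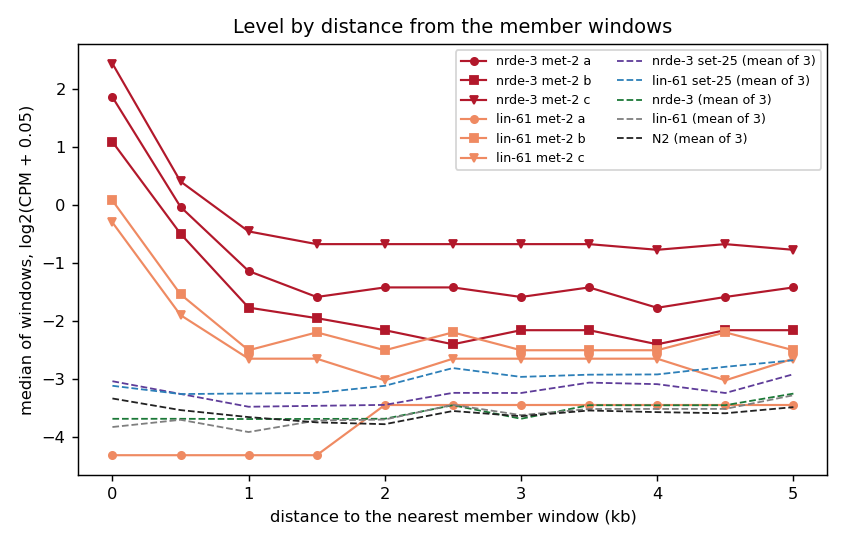
Median level, as log2(CPM + 0.05), of windows by distance in kb from the nearest member, with members at 0. Solid lines are single libraries of nrde-3 met-2 and of the genotype labelled lin-61 met-2, and dashed lines are means of 3 libraries of the other genotypes. Medians of the nrde-3 met-2 libraries level off from about 1.5 kb. Windows away from 0 are no members, so part of the fall in nrde-3 met-2 is fixed by the choice.

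The genotype labelled lin-61 met-2 was set against others with edgeR's quasi-likelihood test on the counts. Benjamini-Hochberg adjustment was over the 97353 windows that passed the filter on low counts. All 165 members passed it, nearly all through their reads in nrde-3 met-2, where the choice had made them high: with only the 6 libraries compared, the filter kept 5, 1 and 0 members in the 3 comparisons below. The counts that follow are a description under that filter and do not decide whether the members as a set were raised. The genotypes it was set against were chosen low, so the other quiet windows that passed, 1524 of 90475, stand beside the members, and the 3 comparisons share the lin-61 met-2 labelled libraries. Against lin-61 set-25, 97 of 165 members in 45 stretches were higher at an adjusted p below 0.05 (58.8%), where 1.26% of all tested windows and 2.62% of the other quiet windows were. Against lin-61, whose libraries carry another title prefix, 146 members in 75 stretches were higher (88.5%), beside 5.86% and 20.7%. Against nrde-3, 58 members in 26 stretches were higher (35.2%), beside 0.693% and 0.328%. The fitted fold change was above 0 at all 165 members in each of the 3, so that 0 members were lower at an unadjusted p below 0.05 as well, and DESeq2 also called 0 lower.

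The size of the difference was large but rested on few reads in the lower group, which the choice had made low. Pooled over 3 libraries, the ratio of the genotype labelled lin-61 met-2 to lin-61 set-25 had a median of 10.7 over the members, with counts of 0 set to 3 reads at 5 members. Against lin-61 the median was 30.4 (23 members at 0 reads) and against nrde-3 it was 17.1 (33 members at 0 reads). The fitted log2 fold changes had medians of 3.44, 4.73 and 4.63 over the members, and of -0.0049, 0.03 and 0.01 over all tested windows.

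The counts of higher members depended on single libraries. Without library a labelled lin-61 met-2, 123, 154 and 120 members were higher than in lin-61 set-25, lin-61 and nrde-3. Without b or c labelled lin-61 met-2, 35 and 38 members were higher than in lin-61 set-25, and 6 and 22 higher than in nrde-3. Leaving out lin-61 set-25 c left 29 members against that genotype, and leaving out nrde-3 a, b or c left 5, 1 and 3. Each of these fits also tested a different number of windows. Background subtraction left 87, 142 and 26.

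All 3 libraries labelled lin-61 met-2 were above all 3 of lin-61 set-25 at 19 members (11.5%), beside 3.59% of the other quiet windows. Of these 19, 15 in 13 stretches were also called higher. Among those 15, 8 windows of 8 stretches had the highest fold changes. They were picked by that value, and lin-61 set-25 was low at them by choice. None of the 8 passed the filter with only the 6 libraries compared. Their ratios and p-values are therefore descriptions. X 4028501 had 0.0412, 2.56 and 2.32 CPM in the lin-61 met-2 labelled libraries, against 0.0377, 0 and 0.0407 CPM in lin-61 set-25. That is 126 pooled reads against 2, a ratio of 62.4 with a 95% counting interval of 16.9 to 521 (Clopper-Pearson) and an adjusted p of 0.00411 in edgeR's test. Libraries b and c carried that difference. Library a and lin-61 set-25 c had 1 read each, so that a lay above only by the smaller total of its library. The separation rested in the same way on equal reads at X 11888001 and I 2543001 (1 read each) and at X 1642501 (2 reads each). X 10367501, in the longest stretch, had 49 reads against 0 (adjusted p = 0.00388 in edgeR's test). With the 0 set to a floor of 3 reads over the group the ratio was 16.2, without a counting interval. V 17308501 had 88 reads against 0, a ratio of 29.1 at the same floor (adjusted p = 0.0124 in edgeR's test). It held 32.5, 2.64 and 17.7 CPM in nrde-3 met-2.

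The other 5 of these windows had 1 to 4 reads in lin-61 set-25. X 11888001 had 66 reads against 1, a ratio of 65.4 (interval 11.3 to 2622). I 2543001, the member highest in nrde-3 met-2 b, had 59 against 1, a ratio of 58.5 (interval 10.1 to 2348). I 13406001, among the 8 members with the widest gaps in nrde-3 met-2, had 115 against 3, a ratio of 38.0 (interval 12.7 to 187). II 5146501 had 36 against 1, a ratio of 35.7 (interval 6.01 to 1448). X 1642501 had 127 against 4, a ratio of 31.5 (interval 11.99 to 117) and a log2 fold change of 4.99 ± 1.27 (SE), with 80.3, 2.01 and 37.6 CPM in nrde-3 met-2. The intervals cover counting error only. The adjusted p of these 5 windows, likewise a description, ran from 0.00592 to 0.0321 in edgeR's quasi-likelihood test. I 2543001, I 13406001 and X 1642501 lost that call without b or c labelled lin-61 met-2 and without lin-61 set-25 a or c, V 17308501 lost it without lin-61 set-25 c and II 5146501 without c labelled lin-61 met-2.

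The level in libraries b and c labelled lin-61 met-2, but not in a, followed that in nrde-3 met-2 c and a. Across the 165 members, the Pearson correlation of log2(CPM + 0.05) with nrde-3 met-2 a, b and c was 0.805, 0.445 and 0.875 for library b labelled lin-61 met-2, and b and c of that genotype had 0.880 between them. For library a it was 0.0243, -0.0346 and 0.0432. These values share each window's length and sequence. The mean over the lin-61 met-2 labelled libraries, which joins library a with the higher b and c, was below the nrde-3 met-2 mean at all 165 members. It was a median of 0.155 of the nrde-3 met-2 mean, with quartiles of 0.125 and 0.193. The lowest nrde-3 met-2 library exceeded the highest library labelled lin-61 met-2 at 144 members (87.3%), beside 32.7% of the other quiet windows, a contrast that the choice had used on its nrde-3 met-2 side. In the strongest 55 members, medians of libraries b and c labelled lin-61 met-2 were 2.51 and 1.67 CPM. In the weakest 55 they were 0.503 and 0.399 CPM. Whether RNA of the same origin is present in both genotypes' libraries was not tested.

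Across quiet windows, the level in b and c labelled lin-61 met-2 was lower where fewer nrde-3 met-2 libraries reached 1 CPM. Among quiet windows, 165 had at least 1 CPM in all 3 nrde-3 met-2 libraries, 468 in 2, 1822 in 1 and 88185 in 0. The medians of library b labelled lin-61 met-2 were 1.01, 0.251, 0.168 and 0.0419 CPM in these 4 classes. The medians of library c were 0.762, 0.218, 0.109 and 0.0363 CPM, and those of library a were 0 in all 4. Of windows short of all 3, 1498 had 1 CPM in c alone, 420 in a and c, 265 in a alone, 59 in b alone, 39 in b and c and 9 in a and b.

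Of the tenth of members lowest in the lin-61 met-2 labelled libraries, 6 with the highest nrde-3 met-2 level for that group are described, and with means of 1.66 to 3.01 CPM in nrde-3 met-2 all 6 were below the member median of 3.83 CPM. X 17445501 had 4.48, 1.04 and 3.50 CPM in nrde-3 met-2, against 0, 0.545 and 0.181 CPM in the lin-61 met-2 labelled libraries. IV 14426501 had 1.94, 4.54 and 1.65 CPM in nrde-3 met-2, against 0, 0.293 and 0.399 CPM. I 3765001 had 1.65, 1.25 and 2.67 CPM, against 0, 0.461 and 0.109 CPM. At these 3 windows all nrde-3 met-2 libraries were above all libraries labelled lin-61 met-2. II 7883501, IV 16244001 and IV 16472001 completed the group, with at most 0.399 CPM in any library labelled lin-61 met-2. Of 165 members, 10 had a mean of at most 0.2 CPM over the lin-61 met-2 labelled libraries.

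The edges of the choice fell among similar windows. Just inside the lower limit, I 1122001, I 1123501, II 5269001 and V 3436001 each had 1.01 CPM in nrde-3 met-2 b. Just outside it, II 3469001 had 0.988 CPM in c, and III 7425001, III 11931501 and III 13585501 had 0.971 CPM in b. III 7425001 had 6.09 and 6.21 CPM in a and c and 0.880 and 1.16 CPM in b and c labelled lin-61 met-2, as members do. Just inside the upper limit were II 6506501, V 3437001, II 4260001 and III 2497501, with quiet means of 0.199, 0.196, 0.194 and 0.194 CPM. Just outside, III 5355501, X 294001, V 8700001 and I 3171501 had 0.201, 0.202, 0.204 and 0.204 CPM. X 294001 held 6.98, 1.94 and 18.6 CPM in nrde-3 met-2.

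Members lay on all 6 chromosomes. There were 53 on X (32.1%), 39 on V (23.6%), 27 on IV (16.4%), 17 on I (10.3%), 15 on III (9.09%) and 14 on II (8.48%), where X held 19.6% of the other quiet windows. Counted as stretches, X held 19 of 87 (21.8%), and the longest stretch alone held 14 of its 53 members. Levels on X were not the highest: the median in nrde-3 met-2 c was 7.16 CPM on X and 12.3 CPM on III. Each chromosome was cut into 5 parts of equal length. In the middle 3 parts lay 117 members (70.9%) and 53 stretches (60.9%), beside 57.0% of the other quiet windows. The second part alone held 58 members (35.2%) and 26 stretches (29.9%), beside 19.4% of the other quiet windows. These shares are descriptions with no test, since neighbouring windows are not independent.

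**Figure D5:**
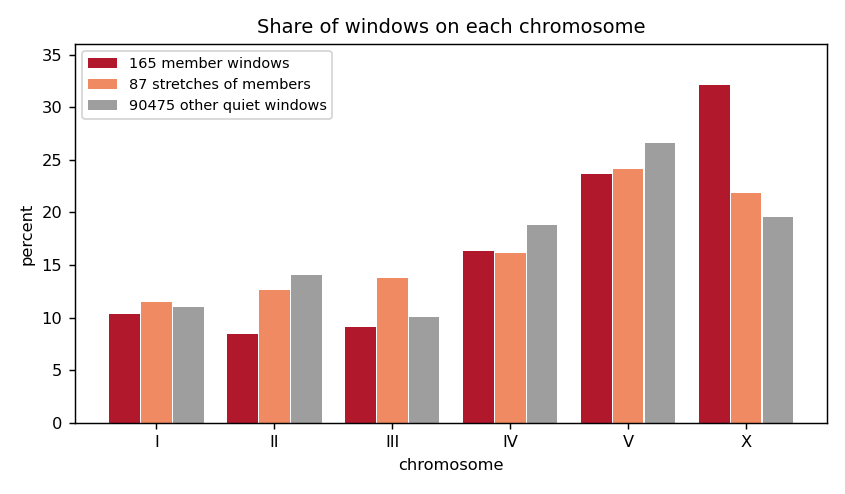
Percent on each chromosome of the 165 member windows, of their 87 stretches and of the 90475 other quiet windows. X holds 32.1% of the members, 21.8% of the stretches and 19.6% of the other quiet windows.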

How the data were processed

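The file deposited by the authors holds raw counts of reads in 500 bp windows of build ce10 (per the submitters' processing notes), with neither strand nor names. The aligner and the counting of reads with several matches are not given in the sources used here. Per the labels, ribosomal RNA was depleted from 5 µg of DNase-treated total RNA. Columns were matched to genotypes by name, and 6 columns of per-sample values that matched no sample were not used.

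CPM used column sums. The test was edgeR 4.0.16 under R 4.3.3 (TMM factors, low counts filtered by filterByExpr, glmQLFit, glmQLFTest). All 21 libraries entered the model, which had a term for each genotype and 14 residual degrees of freedom. The steps were tested on simulated data. The changed windows there held more reads than the lower groups hold at the members. That test therefore does not cover calls at such low counts. DESeq2 1.42.0 was an alternative, and Python 3.11.15 drew the figures. Ratios of pooled reads have 95% Clopper-Pearson intervals. Precision is limited by the counts: 0 reads in the lower group were set to a floor of 3, and such ratios have no interval.

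Members, windows and alternatives were chosen with earlier results of these data known. Windows named are those with the highest lowest-library CPM in nrde-3 met-2 (8), the highest fold changes among called members with separated libraries (8), the highest nrde-3 met-2 means among the tenth of members lowest in lin-61 met-2 (6), the 4 longest stretches, the 4 nearest each threshold on each side, and the 4 highest and 4 lowest ratios between nrde-3 met-2 libraries, 1 per stretch. Further windows were named after their values were seen: I 2543501, III 5354001, III 13288001, III 13288501, X 10361001. Windows of the label check had 5 CPM or more in all libraries on the high side and no more than 0.25 of their lowest on the low side. Title prefixes (875 or 1121) are fixed by genotype: lin-61 and N2 differ in prefix from the rest, so prefix and genotype cannot be told apart in the comparison with lin-61.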

Additional observations from a re-analysis of the deposited data

How the results depend on the processing

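The number of members was 158 with TMM-normalised CPM, 69 at 2 CPM or more in each nrde-3 met-2 library, 71 at a quiet limit of 0.1 CPM, and 174 to 585 with 1 nrde-3 met-2 library left out, 585 being without b. Members higher in the lin-61 met-2 labelled libraries numbered 97 against lin-61 set-25, 146 against lin-61 and 58 against nrde-3. In the same order they were 97, 146 and 52 with RLE scaling, 82, 155 and 42 with no scaling factor, 117, 149 and 121 when windows of low counts were kept, 87, 142 and 26 with background subtracted, and 91, 138 and 75 with DESeq2, which gave 143 of 165 members an adjusted p against nrde-3. With no scaling factor the median of all windows was -0.17, 0.42 and 0.03 on the log2 scale. The 69 stricter members gave 60, 68 and 45, and the 71 quieter members 40, 68 and 25. With only the 6 libraries compared, 0, 1 and 0 members were higher, since the filter then left 5, 1 and 0 of them to test. With 1 library left out the counts ran from 29 to 123, from 117 to 154 and from 1 to 120. The 8 named windows kept a positive fold change in all 88 alternatives that tested them, 11 per window, and their call in 74. The fit with only the 6 libraries compared is not among these, since none of the 8 passed its filter. No paired analysis was possible because the columns carry letters that match no replicate number. Depth limits the lower side of each ratio: 58, 82 and 113 members had at most 3 pooled reads in lin-61 set-25, lin-61 and nrde-3.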
